A study of Mus musculus with 2 samples.

Results

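Mmp12, the macrophage metalloelastase, was followed with 8 other genes of matrix breakdown and its inhibition across the cell classes of the mouse retina. The 9 genes were taken by symbol from the 31053 genes of the files: the metalloproteinases Mmp12, Mmp14, Mmp2 and Mmp9, the related proteases Adam8 and Adamts1, and the tissue inhibitors Timp1, Timp2 and Timp3. They were chosen by name with the UMI counts of these same cells in view, in both libraries and all classes, so their levels are a description and no test was made on them. A UMI (unique molecular identifier) stands for 1 captured RNA molecule, and all 9 genes had UMIs in both libraries.

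The 2 libraries came from wild-type C57BL/6 mice at postnatal day 17. The OIR library (oxygen-induced retinopathy) pooled the retinas of 6 mice that had been kept in 75% oxygen between day 7 and day 12 and afterwards in room air. The control library pooled the retinas of 6 mice labelled as control. In both, cells were bound with CD11b beads, which capture microglia and other myeloid cells, and were then profiled as single cells. In this model the young vessels of the central retina are lost in high oxygen, the tissue becomes short of oxygen in room air, and new vessels then grow out of place.

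Matrix metalloproteinases are zinc enzymes that cut proteins outside the cell. Mmp12 cuts elastin and is typical of macrophages, Mmp14 sits in the membrane and activates the proenzyme of Mmp2, and Mmp2 and Mmp9 are gelatinases that cut basement membrane collagen. Adam8 is a membrane protease of white blood cells, and Adamts1 is a secreted protease that cuts proteoglycans such as versican. The Timp proteins are inhibitors of matrix metalloproteinases. Timp2 also takes part in the activation of Mmp2 by Mmp14. Timp3 is bound to the matrix and acts on some ADAM and ADAMTS enzymes as well.

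The OIR library held 7283 barcodes with 49773742 UMIs, and the control library held 10826 barcodes with 50081145 UMIs. Filtering kept 6132 OIR cells, at a median of 2828.5 UMIs, and 8585 control cells, at a median of 1648 UMIs. Cells were named from marker lists and are called "-like" for that reason. The samples are labelled as retinal microglia, but microglia-like cells were 638 of the OIR cells (10.4%) and 844 of the control cells (9.83%), and rod-like cells were 57.9% and 77.9%. All 12 microglial markers had UMIs in the microglia-like cells of both libraries. The libraries shared 89 barcodes, of which 30 were kept in both. Without the shared barcodes the log2 ratio was 8.94 for Mmp12 and 3.88 for Adam8 in microglia-like cells and 5.62 for Timp1 in glia, close to the values given further on. Each group is 1 library of pooled animals, so group and library cannot be told apart and nothing here has a replicate. Intervals, given in brackets, are at 95% and include only the error of counting molecules. Levels are given as CPM, in which the UMIs of every class in each library are scaled to the same total.

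Windows before 4 start sites of 3 members are shown because Mmp12 and Adam8 stood furthest apart between the libraries in microglia-like cells, and Timp1 in glia. Each is the 250 bases upstream of a RefSeq start site on GRCm38.p6 (the files name its primary assembly as mm10), read in the direction of the gene. RefSeq windows were matched for 7 of the 9 members, and Mmp12 had 2 of them. The first Mmp12 window is chr9:7344147-7344396 and the second is chr9:7347124-7347373, both on the plus strand. The Adam8 window is chr7:139992563-139992812 on the minus strand, and the Timp1 window is chrX:20869916-20870165 on the plus strand. Capitals mark letters of 3 motifs, searched on both strands: the AP-1 site (TGAGTCA or TGACTCA), the ETS core (AGGAAG or CTTCCT) and the core of hypoxia response elements (ACGTG or CACGT).
Mmp12, first window: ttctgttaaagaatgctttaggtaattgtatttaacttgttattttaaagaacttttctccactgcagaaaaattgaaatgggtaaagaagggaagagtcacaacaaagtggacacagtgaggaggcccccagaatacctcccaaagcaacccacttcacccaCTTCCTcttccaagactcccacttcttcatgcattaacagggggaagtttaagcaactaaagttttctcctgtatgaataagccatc
Mmp12, second window: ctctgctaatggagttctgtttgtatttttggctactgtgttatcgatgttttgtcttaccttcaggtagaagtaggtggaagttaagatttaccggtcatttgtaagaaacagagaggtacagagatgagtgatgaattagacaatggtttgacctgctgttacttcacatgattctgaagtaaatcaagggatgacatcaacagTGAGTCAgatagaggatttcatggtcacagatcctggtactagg
Adam8: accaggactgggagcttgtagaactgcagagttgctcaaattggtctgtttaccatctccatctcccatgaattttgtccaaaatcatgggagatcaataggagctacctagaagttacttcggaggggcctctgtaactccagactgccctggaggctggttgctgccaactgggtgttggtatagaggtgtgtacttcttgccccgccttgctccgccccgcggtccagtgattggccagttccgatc
Timp1: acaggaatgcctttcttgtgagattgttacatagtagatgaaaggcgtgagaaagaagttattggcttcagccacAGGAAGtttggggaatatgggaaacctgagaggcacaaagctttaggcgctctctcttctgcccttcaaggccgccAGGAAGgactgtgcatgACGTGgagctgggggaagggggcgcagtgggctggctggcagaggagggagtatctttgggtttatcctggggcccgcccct

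The AP-1 letters were found in the second Mmp12 window, with their first base at position -44 from the start site, and in no other window of the members. They were present in 4.46% of all 32851 windows of this length. The second Mmp12 window lies inside the gene, which spans 7344381 to 7369499 on chromosome 9. The ETS letters stood at -87 in the first Mmp12 window, at -175 and -99 in the Timp1 window, at -209 in the Mmp14 window and at -204 in the Timp3 window, and were present in 29.5% of all windows. The hypoxia letters stood at -82 in the Timp1 window and at -48 in the Mmp14 window, and were present in 16.6% of all windows. The Adam8 window held none of the 3. A match describes the letters only.

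Mmp12 RNA was abundant in OIR microglia-like cells and nearly missing from the control ones. Mmp12 (ENSMUSG00000049723, chromosome 9, 7344381 to 7369499, build mm10, plus strand, protein coding) had 2226 UMIs in the 638 OIR cells and 5 UMIs in the 844 control cells. These were 357 CPM (343 to 372) in OIR and 0.745 CPM (0.242 to 1.74) in control, a log2 ratio of 8.91 (7.68 to 10.53). With 5 control UMIs, of which 3 lay in 1 cell, the size of the ratio rests on few molecules. Other markers differed in the same cells: the 12 microglial markers summed to 12769 CPM in OIR and 22925 CPM in control, and the 10 border macrophage markers to 367 and 97.6 CPM, with UMIs of all 10 in OIR and of 6 in control (F13a1, Cd163, Lyve1 and Clec10a at 0). The 8 neutrophil markers summed to 131 CPM in OIR and 158 CPM in control, with 189 UMIs of S100a8 in OIR and 0 in control. Their part in the Mmp12 difference was not tested. Microglia-like cells held 94.0% of the 2367 Mmp12 UMIs of the OIR library and all 5 of the control library.

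Of the 9 members, 4 reached 20 CPM in microglia-like cells of 1 library. Genes at that level were counted where they were at least 2-fold apart with an interval that excluded 0. Mmp12 and Adam8 were higher by this rule, where 5.04% of 6073 genes were higher, and Adamts1 was lower, where 5.34% were lower. The fourth, Timp2, was less than 2-fold apart. Scaled by the median of all genes, Adamts1 was at -0.92 and no longer 2-fold apart.

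**Figure D1:**
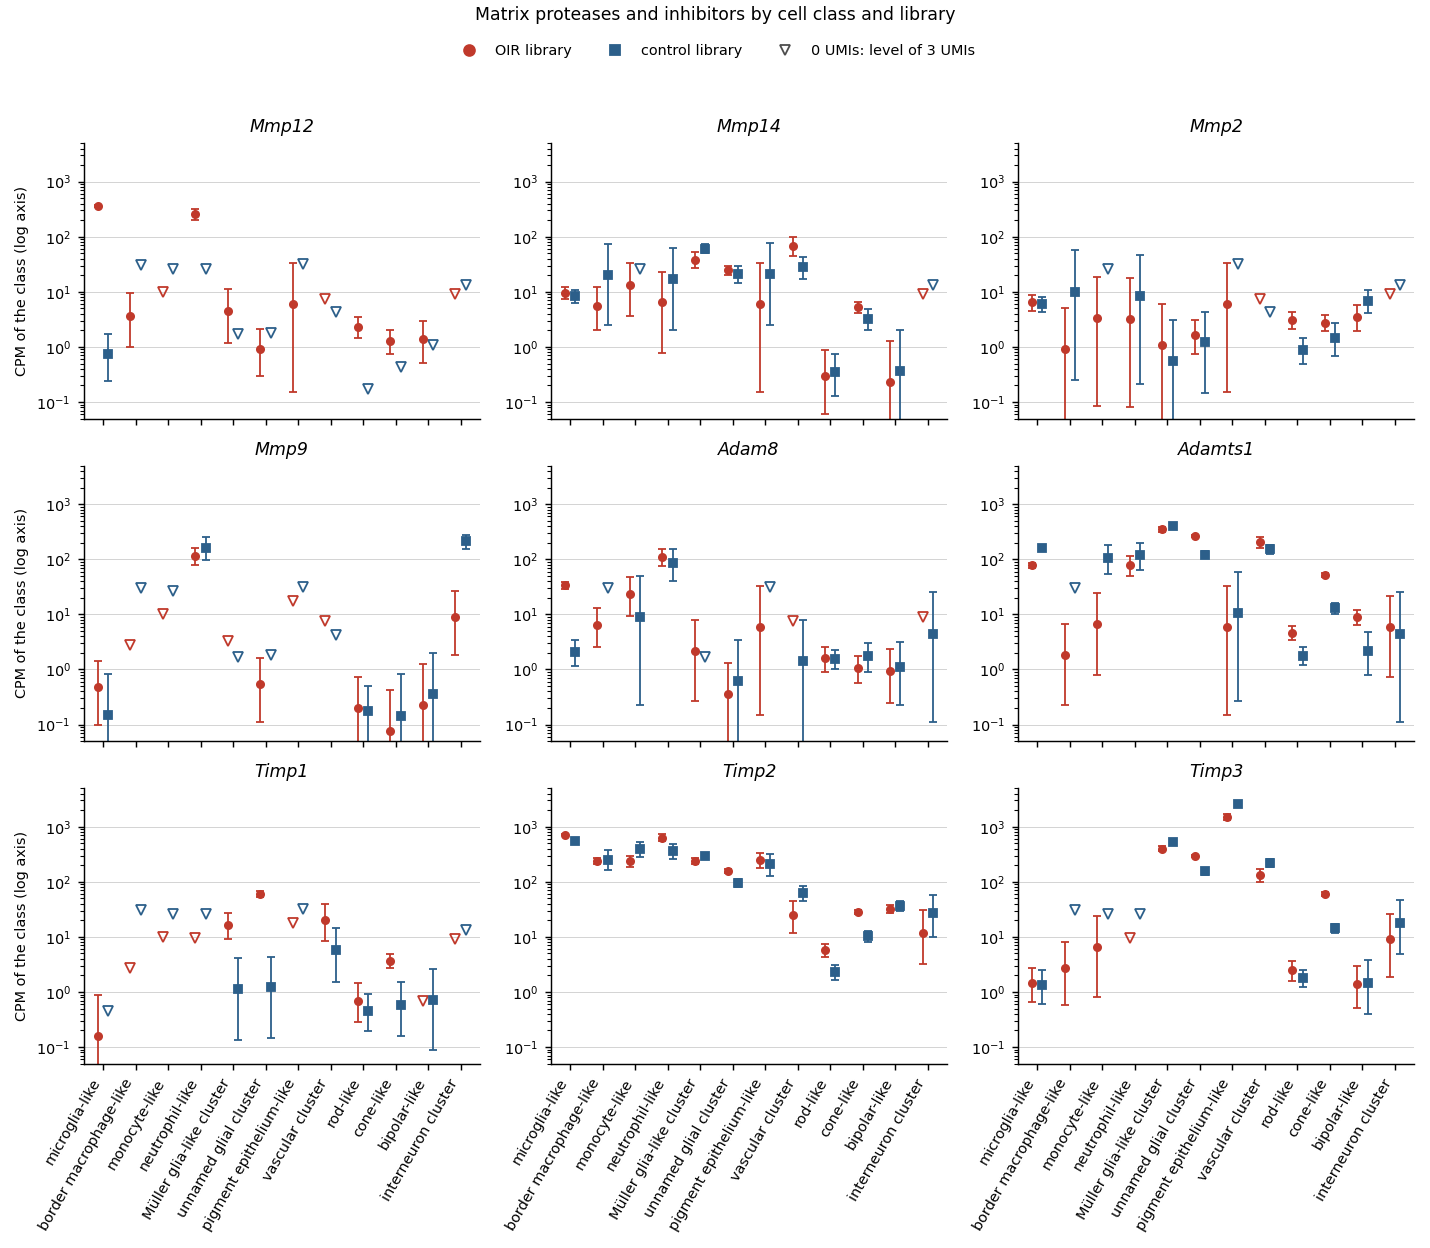
Level of each of the 9 genes in 12 cell classes, in CPM of the class on a log axis, with OIR as circles on the left and control as squares on the right of each pair; bars are 95% Poisson intervals of counting error, and open triangles stand at the level of 3 UMIs where a class had none. Mmp12 and Adam8 lie above control in microglia-like cells, Timp1 in the glial clusters, and Timp3 is highest in pigment epithelium-like cells of both libraries.

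Within the OIR microglia-like cells, most Mmp12 UMIs lay in 1 subcluster. Its leading genes were Spp1 (osteopontin), the haem oxygenase gene Hmox1, Mmp12 itself and Lgals3 (galectin 3). The members and 77 related genes had been left out of the clustering, so Mmp12 did not itself enter the grouping. It held 196 OIR cells and 6 control cells, and 2006 Mmp12 UMIs in OIR (550 CPM, 526 to 574) against 1 in control. That is 90.1% of the microglia-like Mmp12 UMIs of OIR. The same cells held 3648483 of the 6230799 UMIs of all genes in OIR microglia-like cells. Its OIR cells were deep, at a median of 15394 UMIs, and they carried 7641 CPM of the 6 erythroid marker genes, which was 5070 CPM over all OIR microglia-like cells and 5.51 CPM over the control ones. Whether that blood RNA bears on the Mmp12 level was not tested.

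Homeostatic cells, led by genes such as P2ry12 and Tmem119, had 2 Mmp12 UMIs in 80 OIR cells and 4 in 538 control cells. At 3.38 CPM in OIR against 0.824 CPM in control, the log2 ratio of 2.04 (-1.43 to 4.84) held 0, so no difference was detectable at this depth. Homeostatic cells were 80 of 638 microglia-like cells in OIR and 538 of 844 in control. Over all microglia-like cells outside the Spp1-high subcluster, 220 UMIs in OIR and 4 in control gave a ratio of 7.14 (5.77 to 9.03).

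The remaining subclusters held the rest. The cells carrying rod RNA had 129 Mmp12 UMIs in 122 OIR cells (135 CPM) and 0 in 144 control cells. With control set to 3 UMIs this was 56.2-fold higher in OIR (log2 5.81), and the interval of the counts started at 5.49. The cycling subcluster had 64 UMIs in 46 OIR cells (129 CPM), of which 59 came from 1 cell, and 0 in 5 control cells. A shallow subcluster led by Hmox1 had 17 UMIs in 168 OIR cells (37.0 CPM) and 0 in 7 control cells. The interferon-type subcluster led by Cxcl10 had 8 UMIs in OIR (166 CPM), all in 1 of 8 cells, and 0 in 27 control cells. A subcluster led by Rgs10 had none in 18 OIR or 117 control cells.

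Expression was uneven from cell to cell even inside the Spp1-high subcluster. Of its 196 OIR cells, 72 had a Mmp12 UMI and 30 had at least 10. The median cell had 0, the upper quartile was 3, the 90th percentile was 21, and the highest cells held 271 and 248. The 10 highest cells held 65.4% of the UMIs. The cells with a Mmp12 UMI were deeper (median 20899 UMIs) than the 124 cells without (13486), so levels were compared in CPM.

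The Spp1-high cells with a Mmp12 UMI also had more Adam8 and Lgals3 RNA. Adam8 was at 75.5 CPM (63.4 to 89.3) in cells with Mmp12 and 27.8 CPM (20.7 to 36.6) in cells without. Lgals3 was at 2516 CPM in cells with Mmp12 and 716 CPM in cells without, while Spp1 was at 1874 CPM and 2264 CPM. Timp2 was close in both, at 740 CPM and 791 CPM, and Adamts1 was at 118.5 CPM (103 to 135) and 80.2 CPM (67.7 to 94.2). These cells come from 1 library and were divided by a single gene, so the values are a description.

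**Figure D2:**
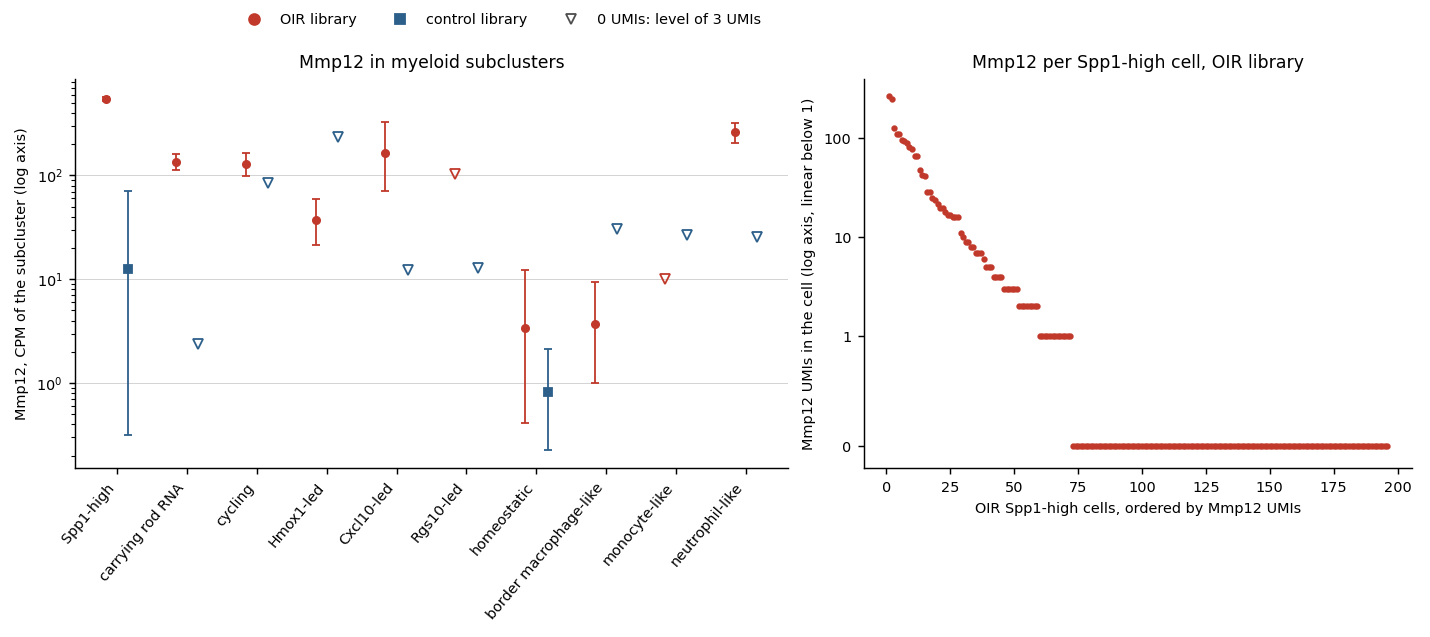
Left, Mmp12 in CPM on a log axis in 10 myeloid subclusters, OIR circles left of control squares, with 95% Poisson intervals and open triangles at the level of 3 UMIs where there were none. Right, Mmp12 UMIs in each of the 196 OIR Spp1-high cells in descending order on a log axis that is linear below 1: 72 cells have at least 1 UMI, the highest has 271, and the other 124 have 0.

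The share of cells with a Mmp12 UMI was taken after every cell was thinned to 1500 UMIs. It was 9.80% of 551 OIR microglia-like cells (7.45 to 12.6) and 0 of 786 control cells, whose interval reaches 0.468%; 87 OIR and 58 control cells were too shallow to enter. Unthinned, 15.0% of OIR cells and 0.355% of control cells had one. In the Spp1-high subcluster the thinned share was 20.1% of 194 OIR cells.

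Low levels of Mmp12 were counted in neural and glial classes of OIR. Rod-like cells, photoreceptors that are not known to make Mmp12, had 23 UMIs in OIR (2.30 CPM) and 0 in control. With control set to 3 UMIs this was 13.3-fold higher in OIR (log2 3.73), and the interval of the counts started at 3.32. The number of Mmp12 UMIs per Spp1 UMI was 0.238 in OIR microglia-like cells, 0.207 in rod-like, 0.353 in bipolar-like and 0.425 in cone-like cells, and 0.5 in glia from 9 and 18 UMIs. No empty droplets were measured here, and whether these UMIs are RNA of other cells was not tested. After thinning, 4 of 1742 OIR rod-like cells had a Mmp12 UMI (0.230%, 0.0626 to 0.587), as did 2 of 420 OIR glial cells (0.476%, 0.0577 to 1.71). The glial share lay within the interval of the rod-like cells. Cone-like cells held 17 UMIs and bipolar-like cells 6 in OIR, with 0 in control in each.

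Border macrophages, the resident macrophages of vessels and tissue edges, had little Mmp12. The 85 OIR cells of this class held 4 UMIs (3.68 CPM) in 2 cells, and the 16 control cells held 0, which allows up to 30.4 CPM. In the OIR cells the 10 border macrophage markers summed to 13761 CPM and the 12 microglial markers to 4753 CPM. In the 16 control cells the order was reversed, at 3171 and 9472 CPM, so the name of the control cells is uncertain. The 29 OIR monocyte-like cells held 0, which allows up to 9.95 CPM, and so did the 11 control cells. Monocyte-like cells carried 5679.7 CPM of the 12 microglial markers in OIR and 11752 CPM in control. The 6 monocyte markers were lower there, at 3755.5 and 2426.2 CPM, so this name is uncertain in both libraries. The neutrophil-like cells held 80 UMIs in OIR (259 CPM), 62 of them in 1 of 19 cells and the rest in 3 others, and 0 in 11 control cells. The microglial gene P2ry12 stood at 408 CPM in the OIR and 1531 CPM in the control neutrophil-like cells, and all 12 microglial markers had UMIs there in both libraries. Those 12 markers summed to 10399 CPM in OIR and 19788 CPM in control, beside 22416 and 18963 CPM of the 8 neutrophil markers. The part of this microglial RNA in the Mmp12 of the neutrophil-like cells was not tested.

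Adam8 was, with Mmp12, the other member at least 2-fold higher in OIR microglia-like cells, and it too lay mostly in the Spp1-high subcluster. Adam8 (ENSMUSG00000025473, chromosome 7, 139978932 to 139992562, minus strand) had 209 UMIs in OIR microglia-like cells and 14 in control ones. That was 33.5 CPM (29.1 to 38.4) in OIR and 2.09 CPM (1.14 to 3.50) in control, a log2 ratio of 4.01 (3.23 to 4.904). The Spp1-high subcluster held 188 of the OIR UMIs (51.5 CPM), over 75 cells with at most 13 each. In homeostatic cells Adam8 had 1 UMI in OIR and 10 in control (-0.29, -5.73 to 2.53). Without the Spp1-high subcluster the ratio over microglia-like cells was 2.05 (0.99 to 3.17).

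Neutrophil-like cells had Adam8 at 110 CPM in OIR (76.3 to 154) and 85.0 CPM in control (40.8 to 156), from 34 and 10 UMIs. The ratio there held 0 (0.37, -0.68 to 1.56). Border macrophage-like cells had 7 UMIs in OIR (6.45 CPM) and 0 in control. In rod-like cells Adam8 was at 1.60 CPM in OIR and 1.56 CPM in control, close to each other.

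The gelatinases and their activator were low in microglia-like cells. Mmp14 (ENSMUSG00000000957, chromosome 14, 54431612 to 54445364, plus strand) had 60 UMIs in OIR and 56 in control, 9.63 and 8.34 CPM, a log2 ratio of 0.21 (-0.34 to 0.76). Mmp2 (ENSMUSG00000031740, chromosome 8, 92827291 to 92853420, plus strand) had 40 UMIs in each, 6.42 CPM in OIR and 5.96 CPM in control (0.11, -0.56 to 0.78). Mmp9 (ENSMUSG00000017737, chromosome 2, 164940780 to 164955850, plus strand) had 3 UMIs in OIR and 1 in control. The intervals of Mmp14 and Mmp2 leave out a 2-fold difference in either direction, while Mmp9 was too scarce to compare.

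Mmp14 was more abundant in glia and in a vascular cluster with markers of endothelial cells and pericytes. In the vascular cluster it had 27 UMIs in 15 OIR cells and 20 in 47 control cells, 67.2 and 28.4 CPM (1.24, 0.36 to 2.16), but 13 of the OIR UMIs came from 1 cell. In the Müller glia-like cluster it stood at 38.6 CPM in OIR and 60.6 CPM in control (-0.65, -1.25 to -0.09). In the other, unnamed glial cluster it stood at 24.5 and 20.7 CPM, with an interval that held 0 (0.25, -0.31 to 0.83). Mmp2 was low everywhere, with its highest level of 10.1 CPM resting on 1 UMI in control border macrophage-like cells. In rod-like cells it had 31 UMIs in OIR and 15 in control, 3.10 and 0.865 CPM (1.84, 0.91 to 2.84).

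Mmp9 was found in neutrophil-like cells of both libraries, where the enzyme is known as a granule protein. It was at 113 CPM in OIR (35 UMIs, 16 of 19 cells) and 162 CPM in control (19 UMIs, 7 of 11 cells), and the log2 ratio of -0.51 (-1.36 to 0.38) held 0. A second site was a small cluster with interneuron markers such as Calb1, Tfap2b and Slc32a1. It had 3 Mmp9 UMIs in 21 OIR cells and 47 in 23 control cells, 8.97 and 211 CPM (-4.56, -6.88 to -2.92). The 47 control UMIs lay in 7 cells with at most 12 each, and all 8 neutrophil markers were at 0 in this cluster in both libraries.

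Adamts1 went the other way from Mmp12 in microglia-like cells. Adamts1 (ENSMUSG00000022893, chromosome 16, 85793827 to 85803113, minus strand) had 481 UMIs in OIR and 1064 in control. It stood at 77.2 CPM in OIR (70.5 to 84.4) and 158 CPM in control (149 to 168), a log2 ratio of -1.04 (-1.20 to -0.88). Its UMIs came in bursts: 100 of 638 OIR cells and 161 of 844 control cells had any, with up to 24 in an OIR cell and 27 in a control cell. After thinning, 5.63% of OIR cells (3.85 to 7.89) and 10.9% of control cells (8.85 to 13.3) had one.

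The lower Adamts1 was also seen within states. Homeostatic cells had 89.5 CPM in OIR and 175 CPM in control (-0.97, -1.40 to -0.57), and the cells carrying rod RNA had 58.6 and 129.6 CPM (-1.15, -1.61 to -0.70). In the Spp1-high subcluster it was 99.2 CPM in OIR and 163.5 CPM in control, where all 13 UMIs came from a single cell, and the interval held 0 (-0.72, -1.51 to 0.20). Of the 9 members only Adamts1 and Timp2 reached 20 CPM in homeostatic cells, and neither was 2-fold apart, where 2.61% of 6119 genes were higher and 2.14% lower.

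Among the other classes the sign of Adamts1 varied. Monocyte-like cells had 2 UMIs in OIR and 12 in control, the latter in 2 cells. In the Müller glia-like cluster it had 349 CPM in OIR and 401 CPM in control (-0.20, -0.40 to -0.01). Cone-like cells had 52.1 CPM in OIR and 12.8 CPM in control (2.02, 1.70 to 2.36), bipolar-like cells 8.96 and 2.19 CPM (2.04, 0.79 to 3.57), and rod-like cells 4.59 and 1.79 CPM (1.36, 0.67 to 2.07). In the vascular cluster, 204 CPM in OIR and 153 CPM in control gave an interval that held 0 (0.41, -0.02 to 0.84).

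Timp1 was the member that stood furthest apart in glia. Glial cells fell into 2 clusters. One is named Müller glia-like, after the radial glia of the retina, and held 67 OIR and 192 control cells. The other held 395 OIR and 120 control cells; UMIs of all 9 Müller markers were present in it, but Gfap, on the astrocyte list and also known in stressed Müller glia, was among its 10 leading genes, so it stays unnamed. The astrocyte marker Pax2 had 6 UMIs in the OIR cells of both clusters together and 0 in the control cells.

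Timp1 (ENSMUSG00000001131, chromosome X, 20870166 to 20874735, plus strand) had 345 UMIs in the OIR glial cells and 4 in the control ones. This was 54.2 CPM in OIR (48.6 to 60.2) and 1.17 CPM in control (0.318 to 2.99), a log2 ratio of 5.54 (4.17 to 7.42). Both clusters showed it: 16.5 CPM in OIR and 1.12 CPM in control in the Müller glia-like cluster (3.88, 1.77 to 7.05), and 60.4 and 1.22 CPM in the unnamed one (5.63, 3.77 to 8.69). The OIR UMIs lay in 61 of 462 cells, and 96 of them in a single cell. Without glial cells above 2% rod-list UMIs, 85 Timp1 UMIs in OIR and 2 in control remained, a log2 ratio of 5.18 (3.285 to 8.25). Gfap was at 156 CPM in OIR and 1.83 CPM in control in the unnamed cluster. In the Müller glia-like one it stood much closer, at 22.0 and 14.6 CPM, while Timp1 was at 16.5 and 1.12 CPM there. The part of Gfap in the Timp1 difference was not tested.

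Timp1 was almost missing from myeloid cells. Over 771 OIR myeloid cells there was 1 UMI, and over the 844 control microglia-like cells 0, which allows up to 0.447 CPM. Cone-like cells had 48 UMIs in OIR and 4 in control (3.64 and 0.583 CPM), and 31 of the OIR UMIs lay in the cluster of cones led by Opn1sw. The vascular cluster had 8 and 4 UMIs, and its interval held 0 (1.81, -0.09 to 3.99).

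Of the 9 members, 5 reached 20 CPM over the 2 glial clusters, and Timp1 alone was counted as higher, where 2.67% of 6750 genes were higher; none was counted as lower, where 3.35% were. In the unnamed cluster alone Adamts1 and Timp1 were higher and none lower, where 5.4% of 6482 genes were higher and 0.972% lower. In the Müller glia-like cluster 4 members reached 20 CPM and none was 2-fold apart, where 5.78% of 7134 genes were higher and 6.48% lower.

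Timp2 had UMIs in all classes but the erythroid-like cells, and was somewhat higher in OIR microglia-like cells. Timp2 (ENSMUSG00000017466, chromosome 11, 118301069 to 118355740, minus strand) had 4453 UMIs in OIR microglia-like cells and 3650 in control ones. It stood at 715 CPM in OIR (694 to 736) and 544 CPM in control (526 to 562), a log2 ratio of 0.39 (0.33 to 0.46). Homeostatic cells gave 724 CPM in OIR and 546 CPM in control (0.41, 0.26 to 0.55). It was detected in 507 of 638 OIR cells and 742 of 844 control cells.

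Border macrophage-like cells had less Timp2 than microglia-like cells in both libraries, 239 CPM in OIR and 253 CPM in control (-0.08, -0.68 to 0.57). The control cells of this class carried more microglial than border macrophage marker RNA, and its part in their Timp2 was not tested. Monocyte-like cells had 236 CPM in OIR and 388 CPM in control (-0.72, -1.28 to -0.14), from 71 and 44 UMIs. Of the 44 control UMIs, the highest cells held 18 and 14. Timp2 was higher in neutrophil-like cells, at 635 CPM in OIR and 366 CPM in control (0.80, 0.31 to 1.31). Of its 196 OIR UMIs there, the highest cells held 55 and 41. Monocyte-like and neutrophil-like cells also carried much microglial marker RNA, and its part in their Timp2 was not tested. Rod-like cells had Timp2 at 5.69 CPM in OIR and 2.31 CPM in control (1.303, 0.69 to 1.92). In the vascular cluster it was 24.9 CPM in OIR and 62.4 CPM in control (-1.33, -2.48 to -0.31), from 10 and 44 UMIs. Bipolar-like cells had 32.4 and 36.4 CPM, with an interval that held 0 (-0.17, -0.55 to 0.22).

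Timp3 marked glia, vessels and above all the pigment epithelium, the cell layer behind the photoreceptors. Timp3 (ENSMUSG00000020044, chromosome 10, 86300372 to 86349506, plus strand) is carried there in Bruch's membrane, and in humans mutations of TIMP3 cause Sorsby fundus dystrophy. Pigment epithelium-like cells had 1516 CPM in OIR (256 UMIs in 44 cells) and 2619 CPM in control (250 UMIs in 28 cells), a log2 ratio of -0.79 (-1.05 to -0.53). The median over 6282 genes in these cells was -0.24. The vascular cluster had 132 CPM in OIR and 218 CPM in control (-0.73, -1.21 to -0.27). Microglia-like cells had 9 UMIs in each library, 1.44 CPM in OIR and 1.34 CPM in control.

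In glia the sign for Timp3, Timp2 and Adamts1 depended on the cluster. Timp3 was at 402 CPM in OIR and 523 CPM in control in the Müller glia-like cluster (-0.38, -0.56 to -0.20), but at 291.5 and 154 CPM in the unnamed one (0.92, 0.73 to 1.12). Timp2 was at 239 and 293 CPM in the first (-0.29, -0.53 to -0.06), and at 157 and 96.2 CPM in the second (0.70, 0.46 to 0.96). Adamts1 was at 266 CPM in OIR and 120.5 CPM in control in the unnamed cluster (1.14, 0.93 to 1.36). All 3 were lower in control cells of the unnamed cluster than in those of the Müller glia-like one, and rod-list genes took 3.63% of UMIs in its OIR cells and 5.53% in its control cells, against 1.04% and 0.640% in the Müller glia-like cluster. Their part in the opposite signs was not tested. Over both clusters a stricter cell filter gave Adamts1 -0.78 (-1.05 to -0.50), against 0.06 (-0.06 to 0.18) without it, and also moved Timp2 to -0.96, Timp3 to -0.88 and Mmp14 to -1.29.

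**Figure D3:**
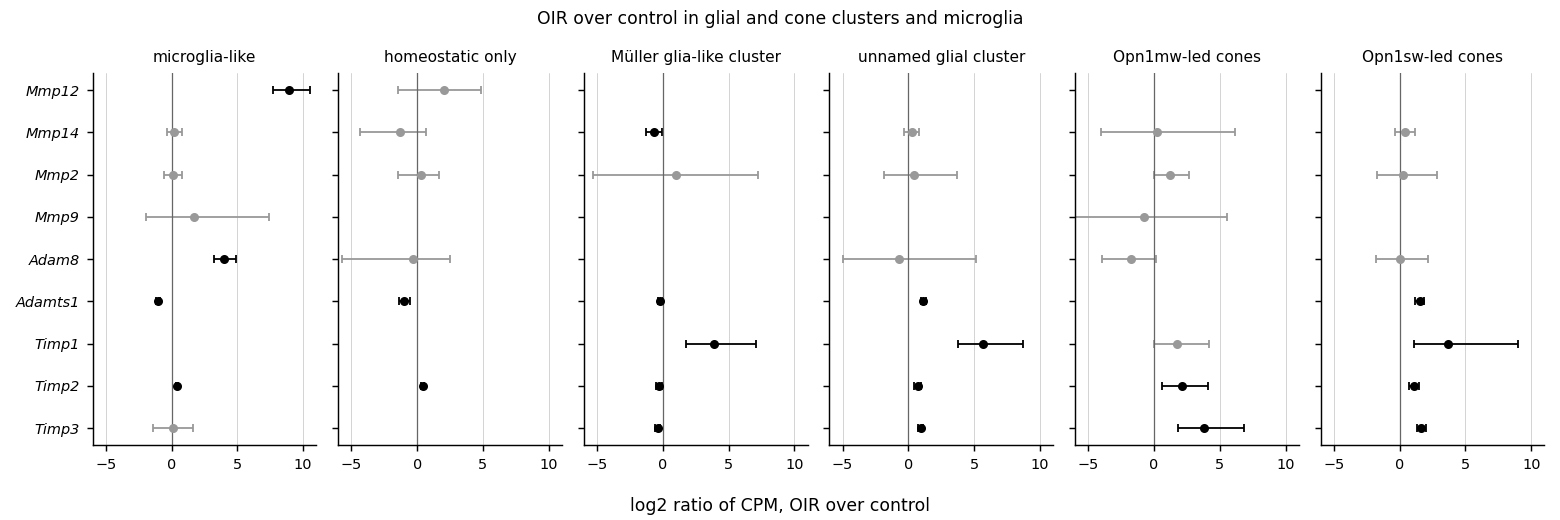
Log2 ratio of CPM, OIR over control, for each member with UMIs in both libraries, in microglia-like cells, their homeostatic subclusters, the 2 glial clusters and the 2 cone clusters; bars are 95% intervals of counting error, black where they exclude 0 and grey where they hold it. Adamts1 lies at -1.04 in microglia-like cells and at 1.14 in the unnamed glial cluster, and Timp3 and Timp2 lie on opposite sides of 0 in the 2 glial clusters.

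Over all cone-like cells 3 members were counted as higher in OIR, with most of their RNA in 1 of the 2 cone clusters. Adamts1, Timp2 and Timp3 were the only members at 20 CPM in cone-like cells, and all 3 were counted as higher, where 1.93% of 6625 genes were higher and 0.166% lower. Timp3 had 59.6 CPM in OIR and 14.3 CPM in control (2.06, 1.76 to 2.38), and Timp2 28.3 and 10.3 CPM (1.46, 1.09 to 1.84). Most of this RNA lay in the Opn1sw-led cluster of 154 OIR and 57 control cells, where Timp3 was at 141 and 44.8 CPM. That cluster was very deep, with a median of 30516 UMIs in OIR and 30469 in control, and it carried the glial gene Glul at 1306 CPM in OIR and 876 CPM in control. Its 10 leading genes held the Müller marker Slc1a3 beside cone genes such as Opn1sw, Pde6h and Arr3. The Opn1mw-led cones had Glul at 45.5 and 54.8 CPM. Their Timp3 was at 5.80 CPM in OIR and 0.423 CPM in control (3.78, 1.84 to 6.86). Their Adamts1 was at 9.07 CPM in OIR with 0 UMIs in control. With control set to 3 UMIs this was 14.3-fold higher in OIR (log2 3.84), and the interval of the counts started at 3.50. Timp2 in the Opn1mw-led cones was at 3.655 CPM in OIR and 0.846 CPM in control (2.11, 0.60 to 4.08). None of the 3 members reached 20 CPM in that cluster. The part of the glial RNA in the cone values was not tested.

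Among 77 other genes of the same system, few were abundant in microglia-like cells. The list holds other metalloproteinases, ADAM and ADAMTS proteases, the plasminogen system, inhibitors and matrix proteins, and 10 of them reached 20 CPM. By the rule above 3 were higher, of which Fn1 and Plaur are described here, and 1 was lower, beside 5.04% and 5.34% of all 6073 genes. The matrix protein gene Fn1 (fibronectin) was at 99.2 CPM in OIR and 1.79 CPM in control (5.79, 4.98 to 6.75). Plaur, the urokinase receptor, was at 66.8 CPM in OIR and 24.1 CPM in control (1.47, 1.20 to 1.74).

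The lower one was Cst3 (cystatin C, an inhibitor of cysteine proteases), at 13532 CPM in OIR and 28160 CPM in control (-1.06, -1.07 to -1.05). It was under 2-fold apart when scaled by the median of all genes. The 4 measured ADAM proteases all stayed within 2-fold. Adam10 and Adam17, the membrane sheddases, were at -0.27 (-0.41 to -0.14) and -0.29 (-0.46 to -0.12), Adam15 was at 0.21 (0.07 to 0.36) and Adam9 at 0.56 (0.28 to 0.85). The other 2 within 2-fold were Serpine2, a protease inhibitor, at -0.24 (-0.32 to -0.17), and Sparc, a matrix-binding protein, at -0.58 (-0.61 to -0.55). No other metalloproteinase and no other ADAMTS protease reached 20 CPM. Below that level, and chosen after the values were seen, the collagenase Mmp13 had 40 UMIs in OIR and 1 in control, and Mmp19 had 40 and 8. The secreted protease genes Adamts10 (31 UMIs in OIR and 68 in control, -1.03, -1.69 to -0.39) and Adamts16 (6 and 31 UMIs, -2.26, -3.81 to -0.98) were lower.

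In the 2 glial clusters 16 of the 77 reached 20 CPM, with 6 higher and 2 lower, beside 2.67% and 3.35% of all 6750 genes. These values were taken over both clusters together. The unnamed cluster made up 395 of 462 glial cells in OIR and 120 of 312 in control. The part of that mix in the ratios was not tested. The higher ones were the protease inhibitors A2m (alpha-2-macroglobulin) and Serping1 (the C1 inhibitor) and the matrix genes Fn1, Fbn1, Col4a1 and Vcan. A2m had 497 UMIs in OIR and 3 in control, 78.0 and 0.876 CPM (6.48, 4.92 to 8.76). Fn1 was at 141 CPM in OIR and 15.8 CPM in control (3.16, 2.76 to 3.58), and Serping1 at 56.2 and 12.3 CPM (2.20, 1.73 to 2.69). Fbn1 (fibrillin 1) was at 1.98, Col4a1 (a basement membrane collagen) at 1.86 and Vcan (versican) at 1.47 on the log2 scale.

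The 2 lower ones were Adamts18, a secreted protease, and Reck, a membrane-anchored inhibitor of metalloproteinases. Adamts18 was at 24.96 CPM in OIR and 72.7 CPM in control (-1.54, -1.84 to -1.25), and Reck at 12.1 and 29.8 CPM (-1.30, -1.75 to -0.86). In rod-like cells 5 of the 77 reached 20 CPM and none was 2-fold apart, where 1.28% of 6572 genes were higher and 0.167% lower. No member reached that level in rod-like cells.

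**Figure D4:**
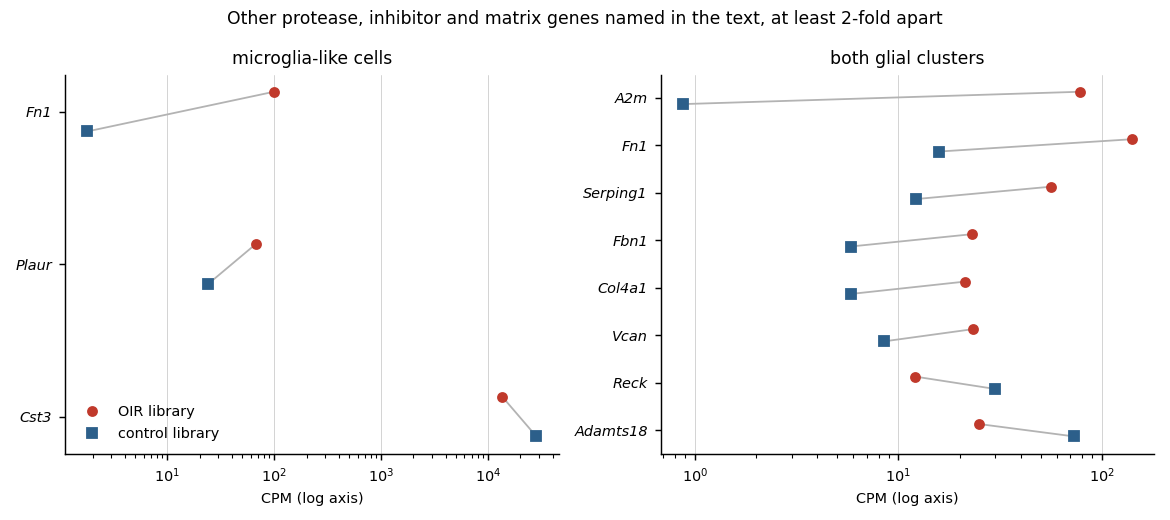
CPM on a log axis of the other protease, inhibitor and matrix genes named in the text as at least 2-fold apart, with the OIR library (circles) above the control library (squares) for each gene, in microglia-like cells on the left and in both glial clusters on the right. Fn1 is higher in OIR in both panels, at 99.2 CPM in OIR and 1.79 CPM in control in microglia-like cells and at 141 and 15.8 CPM in glia.

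Likeness was measured over 16 points, each a class or microglial state of at least 50 cells in 1 library. It was the Pearson correlation of log2(CPM + 1) among 6168 genes that reached 50 CPM at 1 or more points. The points share libraries and cells of unequal depth, so the correlations are a description. The list that named the Spp1-high state holds Spp1 and Fabp5, and both were free to enter the clustering. Likeness of Mmp12 to Spp1 and Fabp5 is therefore partly built in. The genes most like Mmp12 were Adam8 (0.92), Fabp5 (0.89), Spp1 (0.88), Ctla2a (0.87) and Lilr4b (0.87). Those most like Timp1 were Akap12 (0.93), Serpina3n (0.90), Hsd17b2 (0.88), Lcn2 (0.87) and Serping1 (0.86). Timp3 was nearest to Cav1 (0.99), Itgb8, Efhd1, Hes1 and Greb1 (0.98 each), and Adamts1 to Creb3l2 (0.89), Mmgt2 (0.88), Jund, Tm9sf3 and Nav2 (0.87 each).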

How the data were processed

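The OIR and the control library hold retinal cells bound to CD11b beads. The authors deposited raw UMI counts for each gene and barcode, made with Cell Ranger 3.0.2 on mm10, per the submitters' processing notes. The annotation release and the rule for calling cells are not stated there.

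The 9 genes and all lists were chosen with earlier results of these data known. Barcodes were kept from 500 detected genes upwards with no more than 10% mitochondrial UMIs. Scrublet's own threshold called 0 OIR doublets and 1 control doublet, so the top scores were removed at 0.8% per 1000 barcodes, 424 in OIR and 938 in control. Cells of both libraries were clustered together with scanpy 1.11.5, leaving out the members and 77 related genes (2000 variable genes, 30 components, 20 neighbours, Leiden resolution 1), and myeloid cells again with 20 components. For that step a resolution of 0.5 had been planned. It joined cells led by S100a8 and S100a9 to the Spp1-high microglia, so 1 was used, a choice made after seeing the data. Clusters were named from marker lists, with 3 or more markers detected. Gene positions came from GENCODE on mm10, where 30934 of 31053 identifiers were found.

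Counts were summed per class and library and scaled to the class total (CPM). Levels have exact Poisson, shares exact Clopper-Pearson and log2 ratios exact conditional binomial intervals at 95%. The limit for 0 UMIs is 3 UMIs per library, and no fold is given where both libraries are at or under it. With 1 library per group there is no test. The interval step was tested on simulated counts. The rule for named genes took the 9 members, the related genes that were at least 2-fold apart at 20 CPM with an interval excluding 0, and the 5 most alike. Outside it, Adam9, Adam10, Adam15, Adam17, Serpine2, Sparc, Mmp13, Mmp19, Adamts10 and Adamts16 were named after their values were seen. The result of 1 related gene is not reported here. The alternatives were another cell filter, scaling, minimum level, thinning depth or clustering, kept doublets, and cells above 2% rod-list UMIs left out.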

Additional observations from a re-analysis of the deposited data

Results flagged for a closer look

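4 members had log2 ratios of opposite sign in a pair of cell classes, each with an interval that excluded 0; the difference between the classes was not tested. Adamts1 was at -1.04 in microglia-like cells and at 2.04 in bipolar-like cells. Timp2 was at -1.33 in the vascular cluster and at 1.46 in cone-like cells. Mmp14 was at -0.64 over both glial clusters and at 1.24 in the vascular cluster; in the unnamed glial cluster alone it was at 0.25, with an interval that held 0. Timp3 was at -0.79 in pigment epithelium-like cells and at 2.06 in cone-like cells.

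The barcodes that entered no class, because they failed the cell filter or were called doublets, numbered 1151 in OIR and 2241 in control. Mmp12 stood at 8.20 CPM there in OIR, with 43 of its 56 UMIs in doublet calls, and at 0.0863 CPM in control. Timp1 stood at 2.34 CPM in OIR and 0.259 CPM in control, Timp2 at 80.4 and 64.8 CPM, and Timp3 at 58.1 and 30.7 CPM.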

How the results depend on the processing

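No paired analysis was possible because each group is 1 library and the replicate number only names it. Of the alternative values for the main results, 61 stayed within the counting interval or near the main count, 32 moved and 4 changed sign. The main results include the ratios of Mmp12, Adam8, Adamts1 and Timp2 in microglia-like cells and of Timp1 and Timp3 in glia. For the remaining member ratios 64 stayed, 9 moved and 2 changed sign. A change of sign was counted only where the main interval excluded 0. Other turns of sign, such as glial Adamts1 from 0.06 to -0.78, are among those that stayed or moved. Some values stayed because the cells were the same. Coarser clustering returned the main microglia-like counts, and clustering the myeloid cells again does not touch glia. Where no cause is named, the cause was not tested. Left out of the microglia-like cells, the Spp1-high subcluster took Mmp12 to 7.14, Adam8 to 2.05, Adamts1 to -1.78, Timp2 to 0.25, the thinned share of OIR cells with Mmp12 to 4.20%, and the related genes counted to 1 higher and 0 lower. At resolution 0.5, where those cells lose the microglia name, the values were 6.78, 2.04, -1.57, 0.32, 3.80%, 1 and 0 in the same order. In homeostatic cells alone Mmp12 was at 2.04 and Adam8, from 1 OIR and 10 control UMIs, at -0.29, with 0 related genes higher and 0 lower. Median-of-ratios scaling, which takes out the median microglia-like ratio of -0.12, gave Timp2 0.51, Adamts1 -0.92 and 0 related genes lower. With doublet calls kept, Timp2 was at 0.46 and glial Timp3 at 0.087; coarser clustering put glial Timp3 at 0.044 and a stricter cell filter put it at -0.88, with glial Adamts1 at 0.24, 0.22 and -0.78 in that order, Timp2 at -0.96 and Mmp14 at -1.29 under the last. In the Müller glia-like cluster alone Timp1 was at 3.88 and Timp3 at -0.38; in the unnamed one Timp3 was at 0.92, Timp2 at 0.70 and Mmp14 at 0.25. With the protease genes in the clustering, Adamts1 was at -1.25 and the Mmp12 share at 6.72%. That share was 6.15% thinned to 1000 UMIs and 15.0% unthinned. The 196 OIR Spp1-high cells held 86.8% of the OIR myeloid Mmp12 UMIs. With states set per cell by markers the percentage was 79.1%. That Spp1-high group took in most of the 771 OIR myeloid cells, so its percentage shows little concentration of Mmp12. The percentage was 90.3% both at resolution 0.5 and with the protease genes in the clustering. In both of these the Spp1-high group takes in a cluster led by S100a9 and S100a8 and named neutrophil. At a minimum of 5 CPM, 5 related genes were higher and 2 lower. Depth limits Mmp9 in microglia, Mmp12 in control cells, and every class under 50 cells. The alternatives without the Spp1-high subcluster, with homeostatic cells only, with 1 glial cluster and without shared barcodes were chosen after seeing the data, as were resolution 0.5 for the member ratios and the clustering with protease genes for the Spp1-high percentage.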
